A study of Arabidopsis thaliana with 4 samples.

Results

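The full-size ABCG transporters described here are 10 *A. thaliana* genes, *ABCG29* to *ABCG37* and *ABCG40*, also known by the older name pleiotropic drug resistance (PDR) genes. Their members were found as the array probes whose locus name, without its suffix, is one of the 10 listed loci. All 10 loci were on the array, with 14 probes, out of 29030 loci in all. The family was selected on the measured rise of *ABCG40* in these same arrays, so the ratios of mVOC-exposed over control seedlings given for the members are a description and carry no test.

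ABCG proteins are ATP-binding cassette transporters, which use ATP to move molecules across membranes. Full-size members carry both copies of the nucleotide-binding and membrane domains in a single chain, whereas half-size members carry one copy of each and work as dimers. In plants they are known for the transport of hormones such as abscisic acid (ABA), of surface lipids and lignin precursors, and of defence compounds.

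Each of the 4 arrays held 2 RNA samples of whole *A. thaliana* Col0 seedlings, roots and shoots together. The control RNA, from unexposed seedlings, was labelled with Cy3, and the RNA of seedlings exposed to the volatile compounds (mVOCs) of the bacterium *E. amylovora* was labelled with Cy5. The seedlings were 7 days old and the exposure lasted 16 h, both from the methods. No array had the dyes exchanged, so a dye effect on a probe and the effect of exposure cannot be told apart. The free-text description attached to all 4 samples names control embryonic stem cells, which goes against the organism, the source, the titles, the agent given for each channel and the methods. That description was not used, and the groups rest on the agent named for each channel.

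The loci of the array are those of *A. thaliana*, and its signals rose well above background for 74.2% to 76.4% of spots in the control channel (Cy3) and for 74.6% to 78.8% in the exposed channel (Cy5). Leaf and root hair genes fixed as markers (*RBCS1A*, *LHCB1.1*, *RCA*, *COBL9*, *EXPA7* and *LRX1*) were all well above background on the arrays. Some of these markers moved with exposure, and so did seed genes. The Rubisco subunit gene *RBCS1A* was higher, at 0.48 ± 0.095 on the log2 scale (SD, n = 4, limma adjusted p = 0.000215). The other leaf markers did not share this: *LHCB1.1* was lower, at -0.12 ± 0.027 (SD, n = 4, limma adjusted p = 0.041). *RCA* was at -0.015 ± 0.019 (SD, n = 4, limma adjusted p = 0.815). The root hair expansin *EXPA7* was lower, at -0.57 ± 0.13 (SD, n = 4, limma adjusted p = 0.00018), as was the seed storage gene *CRU3*, at -0.95 ± 0.45 (SD, n = 4, limma adjusted p = 0.00136). The *CRU3* value is the mean of 2 probes that differed, at -1.82 and -0.072, and on replicate 4 it was -0.27, against -1.19 to -1.16 on the other arrays. The probe at -0.072 was well above background on 3 of 4 arrays in each channel. Replicate 4 had local background up to 59573 units in Cy3 and the smallest SD of log2 ratios over all probes, 0.11. Over the marker lists, 1 of 3 leaf genes was higher and 1 lower, 1 of 3 root hair genes was lower and 2 of 3 seed genes were lower. Of all loci, 9.33% were called higher and 7.96% lower. The part of these markers in the values of the ABCG genes was not tested. In whole seedlings, fewer cells of a type and less RNA per cell cannot be told apart.

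Only the *ABCG40* probe, A_84_P11446, has a sequence in the sources used here. It is shown because the largest ratio of the family was read by this probe alone. The probe has 60 bases, of which 27 are G or C, and is printed in lower case, 5′ to 3′, with no part marked.
ABCG40 probe A_84_P11446: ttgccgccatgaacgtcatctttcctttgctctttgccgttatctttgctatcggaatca

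*ABCG40* (AT1G15520), a plasma membrane importer of ABA, stood apart from the other 9 genes. In the control channel its median spot intensity was 273, 268.5, 306 and 274.5 scanner units in replicates 1 to 4, over a local background of 50 to 53. In the channel of mVOC-exposed seedlings it was 715, 662, 714 and 644 units, over a background of 55 to 59. The highest control value lay far below the lowest exposed value, and replicate 4 was like the others in both channels. After background correction and loess normalization, which removes the intensity-dependent difference between dyes, the log2 ratio was 1.26, 1.08, 1.00 and 0.46 in replicates 1 to 4. The mean was 0.95 ± 0.35 (SD, n = 4), a 1.94-fold higher level in exposed seedlings. Only 3 of 29030 loci had a higher mean log2 ratio.

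**Figure D1:**
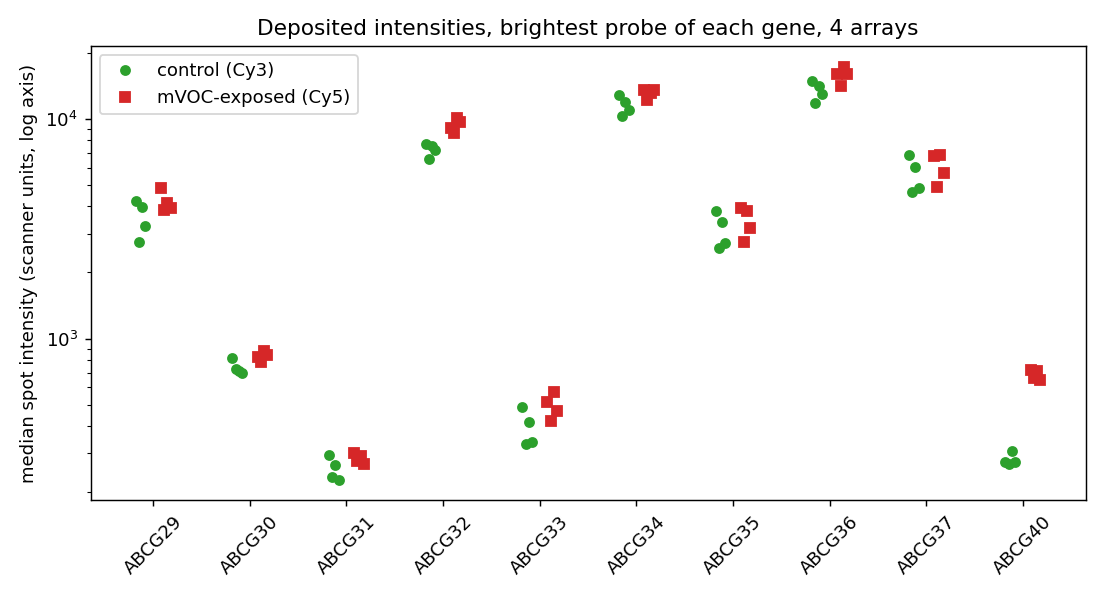
Median spot intensity in scanner units, before correction, on a log axis, for the brightest probe of each gene on 4 arrays, with control (Cy3) as circles and mVOC-exposed (Cy5) as squares. The *ABCG40* points separate, from 268.5 to 306 in controls and from 644 to 715 in exposed seedlings.

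The ratio of *ABCG40* in replicate 4 moved with the treatment of the background on that array. Local background there reached 59573 units in Cy3, against at most 69 on the other arrays. With the spots marked for non-uniform background left out of the model, the log2 ratio of *ABCG40* in replicate 4 was 0.95, in place of 0.46, and its mean was 1.08. Replicates 1 to 3 then had 1.26, 1.09 and 1.01, close to their values above. Without replicate 4 the mean was 1.12. Before any normalization, the background-subtracted log2 ratio of the probe was between 1.37 and 1.58 on the 4 arrays, whereas the 500 probes of nearest brightness on each array had a median between 0.16 and 0.32. Within the pair of arrays on slide 1 the mean log2 ratio of *ABCG40* was 1.17, and within slide 2, which holds replicate 4, it was 0.73.

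The other genes linked to ABA transport in seeds were near a ratio of 1. *ABCG30* (AT4G15230), which brings ABA into the embryo, had log2 ratios of -0.076, -0.042, -0.012 and 0.022 in replicates 1 to 4, the mean of 3 probes. *ABCG31* (AT2G29940), which exports ABA from the endosperm, had -0.069, 0.11, -0.029 and 0.013. The mean was -0.027 ± 0.041 for *ABCG30* and 0.0055 ± 0.075 for *ABCG31* (SD, n = 4). Both genes had arrays on either side of 0, and their control and exposed intensities overlapped. The *ABCG31* probe read 227 to 295.5 units in controls and 268.5 to 301 units in exposed seedlings.

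*ABCG36* and *ABCG37*, tied to defence and auxin, and *ABCG35* had small negative ratios. *ABCG36* (AT1G59870), also called *PEN3*, is a plasma membrane exporter needed for resistance to the entry of fungi. Its log2 ratios were -0.23, -0.17, -0.16 and -0.24 in replicates 1 to 4, with a mean of -0.20 ± 0.041 (SD, n = 4). Scaled between arrays as well, the normalized log2 intensities of the groups did not overlap. They were 13.92 to 14.00 in controls and 13.69 to 13.77 in exposed seedlings. The deposited intensities did overlap, at 11883 to 14945 units in controls and 14174 to 17348.5 units in exposed seedlings. *ABCG37* (AT3G53480), an exporter of auxin precursors and of root coumarins, had log2 ratios of -0.28, -0.27, -0.18 and -0.19, with a mean of -0.23 ± 0.053 (SD, n = 4). Its normalized groups also did not overlap, at 12.53 to 12.77 in controls and 12.29 to 12.49 in exposed seedlings. Its deposited intensities did, at 4649 to 6843.5 units in controls and 4926 to 6859 units in exposed seedlings. The share of all probes without overlap was not counted, so nothing is read from these gaps. *ABCG35* (AT1G15210) had log2 ratios of -0.21, -0.22, -0.17 and -0.17, with a mean of -0.19 ± 0.029 (SD, n = 4). For *ABCG35* the normalized intensities overlapped, since arrays differed more from each other than the channels of an array did.

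**Figure D2:**
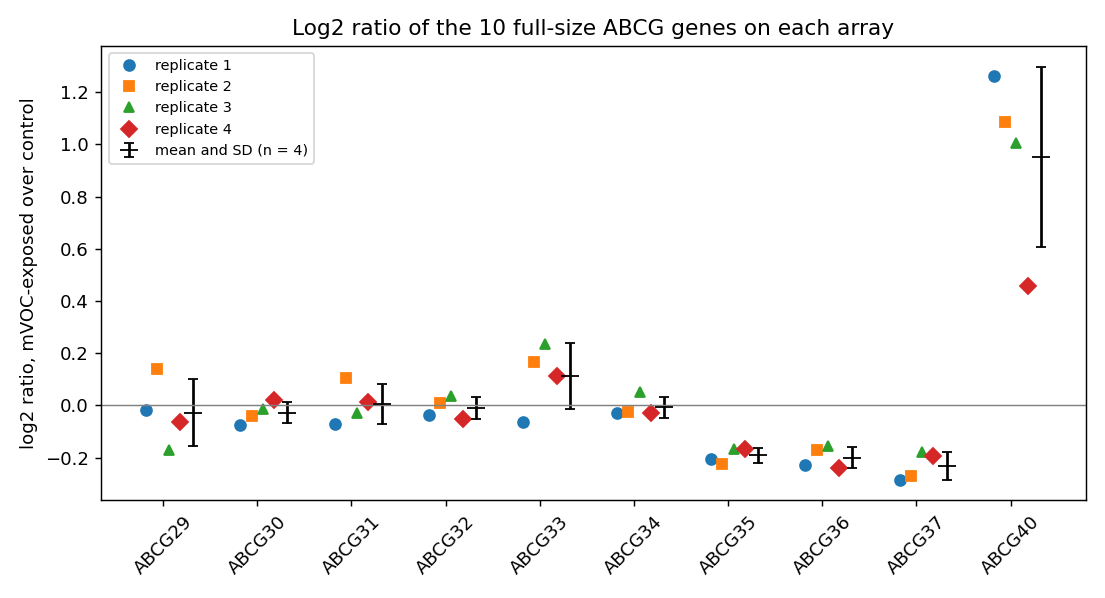
Log2 ratio of mVOC-exposed over control seedlings for each of the 10 genes, with a symbol for each replicate and the mean with its SD (n = 4) at the right of each gene. *ABCG40* lies between 0.46 and 1.26 and the other 9 genes between -0.28 and 0.24.

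The size of these small negative ratios, and for *ABCG36* the direction, rests on the normalization. In the deposited intensities, *ABCG36* was brighter in the exposed channel on every array, with 14945, 11883, 14188 and 13067 units in Cy3 and 16107, 14174, 17348.5 and 16030 units in Cy5. Its background-subtracted log2 ratio was 0.11 to 0.30, but that of the 500 probes of nearest brightness had a median of 0.32 to 0.50, so *ABCG36* lay below them on 4 of 4 arrays. The same held for *ABCG35*, at 0.036 to 0.22 against 0.25 to 0.42, and for *ABCG37*, at -0.016 to 0.23 against 0.28 to 0.43. Loess likewise sets a probe against others of like brightness, so these comparisons are no separate check on the loess ratios. With median centring in place of loess, which leaves this dependence on brightness in place, the mean log2 ratio was 0.097 for *ABCG36*, turned in sign, -0.012 for *ABCG35* and -0.019 for *ABCG37*. Replicate 4 carried much of this shift. The median-centred log2 ratios of *ABCG36* were -0.042, 0.040, 0.068 and 0.32 in replicates 1 to 4, and *ABCG35* and *ABCG37* were below 0 on replicates 1 to 3 and above 0 on replicate 4.

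*ABCG34* (AT2G36380), which secretes the phytoalexin camalexin, was read by 2 probes that went in opposite directions. The brighter probe, A_84_P15410, had log2 ratios of -0.24, -0.17, -0.29 and -0.22 in replicates 1 to 4. The dimmer probe, A_84_P834955, had 0.19, 0.12, 0.40 and 0.16. Each probe kept its sign on all 4 arrays. Control intensities were 10345 to 12858 units for the brighter and 413.5 to 471.5 units for the dimmer probe. The mean of both probes, -0.0076 ± 0.040 (SD, n = 4), therefore stands for neither of them. Which transcript each probe reads was not tested.

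**Figure D3:**
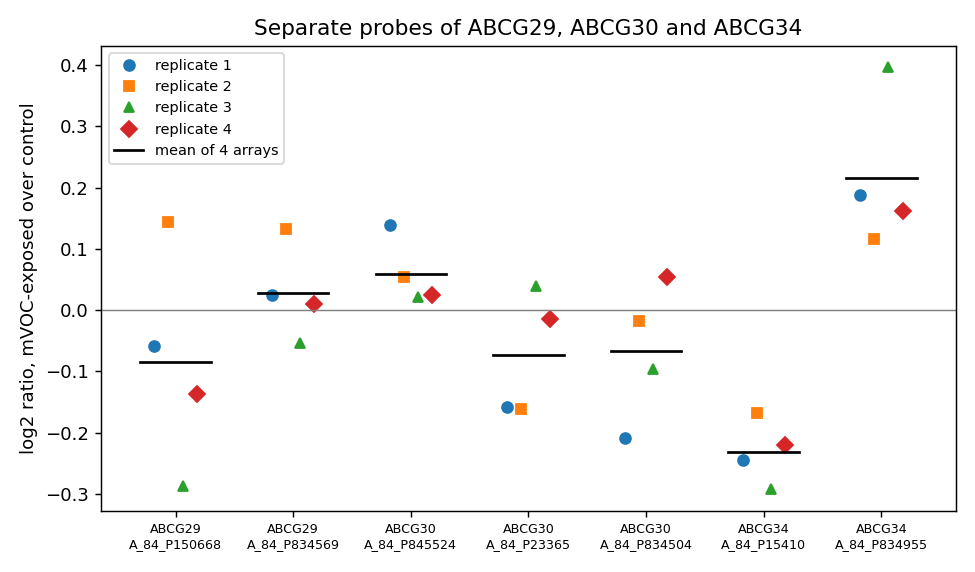
Log2 ratio of mVOC-exposed over control seedlings on each array for the separate probes of *ABCG29*, *ABCG30* and *ABCG34*, with a line at the mean of 4 arrays. The *ABCG34* probes lie on opposite sides of 0, with means of -0.23 and 0.22.

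*ABCG32* and *ABCG29*, genes of surface and wall transport, had arrays on either side of 0, as did *ABCG33*. *ABCG32* (AT2G26910), also called *PEC1*, is needed for a tight leaf cuticle. Its log2 ratios were -0.036, 0.011, 0.036 and -0.052 in replicates 1 to 4, with a mean of -0.010 ± 0.041 (SD, n = 4). *ABCG29* (AT3G16340), a transporter of the lignin precursor p-coumaryl alcohol, had -0.017, 0.14, -0.17 and -0.063, with a mean of -0.028 ± 0.13 (SD, n = 4). Of its 2 probes, the brighter one ranged from -0.29 to 0.14 and the dimmer one from -0.053 to 0.13. *ABCG33* (AT2G37280) had log2 ratios of -0.062, 0.17, 0.24 and 0.11, so that 3 of 4 arrays were above 0, with a mean of 0.11 ± 0.13 (SD, n = 4). With median centring *ABCG32* had a mean of 0.23.

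Over the 10 genes, 3 had a positive and 7 a negative mean log2 ratio, with a median of -0.018, beside a median of 0.0029 over all loci. The sign of the means nearest to 0, those of *ABCG29*, *ABCG30*, *ABCG31*, *ABCG32* and *ABCG34*, turned under at least 1 other way of processing each. With limma's adjusted p below 0.05 over all loci, 1 of the 10 was called higher (*ABCG40*), where 9.33% of all loci were called higher. In the other direction 3 of the 10 were called lower (*ABCG35*, *ABCG36* and *ABCG37*), where 7.96% of all loci were called lower. Because the family was selected on this contrast, nothing is read from these counts. All 14 probes were well above background in both channels on all 4 arrays.

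**Figure D4:**
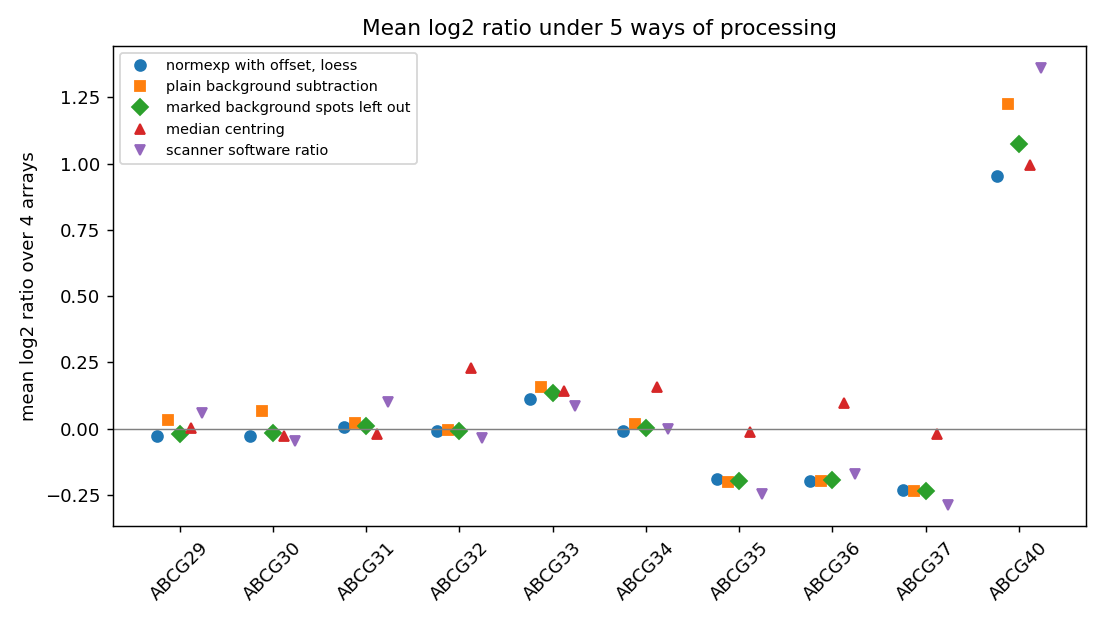
Mean log2 ratio over 4 arrays of each gene under 5 ways of processing the same arrays. *ABCG40* stays between 0.95 and 1.36, whereas *ABCG36* moves from -0.20 to 0.097 with median centring.

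The remaining full-size genes, *ABCG38*, *ABCG39* and *ABCG41* to *ABCG43*, gave no calls. Of these 5 genes, 0 had an adjusted p below 0.05 in limma, where 9.33% of all loci were called higher and 7.96% lower. At an unadjusted p below 0.05 there was 1 (*ABCG39*), where the share of all loci was not counted. With an ordinary test 0 passed, where only 4 of 29030 loci were called higher and 13 lower. Their median log2 ratio was 0.033. *ABCG39* (AT1G66950) had a mean of 0.15 ± 0.12 (SD, n = 4, adjusted p = 0.058 in limma), from probes with means of -0.068 and 0.37. *ABCG41* (AT4G15215) had -0.084 ± 0.090 (adjusted p = 0.209 in limma) and its probe did not rise well above background in any sample. *ABCG42* (AT4G15233) had -0.0084 ± 0.082 (adjusted p = 0.914 in limma) and *ABCG43* (AT4G15236) had 0.036 ± 0.084 (adjusted p = 0.598 in limma). For *ABCG38* (AT3G30842), with a mean of 0.033 (adjusted p = 0.576 in limma), 2 of 3 probes were not well above background in either group. The remaining probe was well above background in exposed seedlings only, with log2 ratios of 0.14, 0.19, 0.25 and 0.014 in replicates 1 to 4. Its mean was at least 1.1-fold higher there, a lower bound set from the dimmest signals above background, which replicate 4 alone did not reach. The adjusted p was 0.0475 over all probes in limma, where 9.62% of all probes were called higher. The other 2 probes had means of -0.047 and -0.0036. This probe was singled out because it passed the detection limit in the exposed channel only, which was always Cy5. Nothing is therefore read from its bound or its adjusted p.

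All 28 half-size genes, *ABCG1* to *ABCG28*, were measured. Of these, 3 (10.7%) were called higher and 0 lower with limma's adjusted p below 0.05, where 9.33% and 7.96% of all loci were called, so the share higher was near that of all loci. The counts were 6 and 2 at an unadjusted p below 0.05, where the share of all loci was not counted, so nothing is read from them. With an ordinary test 0 were called, where only 4 of 29030 loci were called higher and 13 lower. The median log2 ratio of the half-size genes was -0.012 and their means ranged from -0.13 to 0.28. *ABCG4* (AT4G25750) had a mean log2 ratio of 0.28 ± 0.20 (SD, n = 4, limma adjusted p = 0.0174). Its values on slide 1, 0.44 and 0.46, stood above 0.091 and 0.11 on slide 2. *ABCG5* (AT2G13610) had a mean of 0.19 ± 0.032 (SD, n = 4, adjusted p = 0.00653 in limma), with all 4 arrays between 0.17 and 0.23. *ABCG8* (AT5G52860) had a mean of 0.17 ± 0.13 (SD, n = 4, limma adjusted p = 0.0403).

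**Figure D5:**
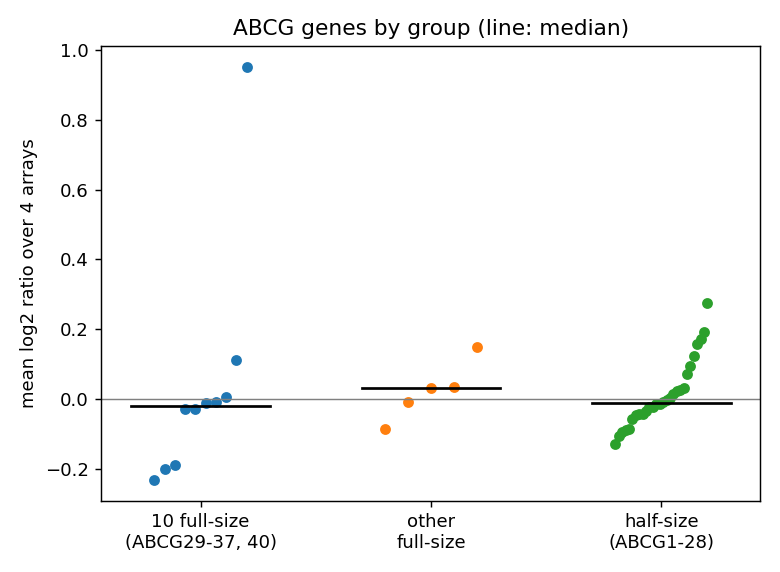
Mean log2 ratio over 4 arrays of each ABCG gene, in 3 groups, with a line at the group median. *ABCG40*, at 0.95, is above every half-size gene, of which the highest is 0.28.

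Other ABA transporters did not share the ratio of *ABCG40*. The ABA exporter *ABCG25* (AT1G71960) had a mean log2 ratio of 0.023 ± 0.094 (SD, n = 4, limma adjusted p = 0.761). The efflux carrier *DTX50* (AT5G52050) was higher, at 0.18 ± 0.13 (SD, n = 4, adjusted p = 0.0332 in limma), and was above 0 on 4 of 4 arrays. The ABA importer *NPF4.6* (AT1G69850) had -0.11 ± 0.10 (SD, n = 4, adjusted p = 0.132 in limma). Of this list of 3 genes, 1 was called higher and 0 lower, where 9.33% and 7.96% of all loci were called. At an unadjusted p below 0.05 there was 1 in each direction, where the share of all loci was not counted.

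Among the genes that act in penetration resistance beside *ABCG36*, the syntaxin gene *PEN1* (AT3G11820) was lower, at -0.25 ± 0.082 (SD, n = 4, adjusted p = 0.00381 in limma), on 4 of 4 arrays and by both of its probes. The myrosinase gene *PEN2* (AT2G44490) had -0.052 ± 0.096 (SD, n = 4, adjusted p = 0.457 in limma), and the phytochelatin synthase gene *PEN4* (AT5G44070) had -0.021 ± 0.031 (SD, n = 4, adjusted p = 0.741 in limma). The *PEN4* value is the mean of 3 probes, of which 1 was below 0 on all 4 arrays, with a mean of -0.15, and the others had means of 0.044 and 0.049. Of this list of 3 genes, 0 were called higher and 1 lower, where 9.33% and 7.96% of all loci were called. An ordinary test called 0, where only 4 of 29030 loci were called higher and 13 lower. The ratio of *PEN1* was not looked at under other normalizations.

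The 5 loci whose log2 ratios on the 4 arrays lay nearest to those of *ABCG40* were found by the root mean square difference over the arrays. *QQS* (AT3G30720), which acts in starch metabolism, was nearest, at a difference of 0.12 and a mean log2 ratio of 0.96. *PCR1* (AT1G14880), a cadmium resistance gene, followed at 0.13 with a mean of 0.85. *JRG21* (AT3G55970), a jasmonate-regulated oxidase, was at 0.13 with a mean of 0.96. AT1G50060 and AT2G16367 were both at 0.16, with means of 0.83 and 0.85. All 5 had their lowest value on replicate 4, as *ABCG40* did, and each was read by 1 probe, well above background on all arrays. The likeness covers 4 arrays only and includes the shared low value on replicate 4. That array had the smallest SD of log2 ratios over all probes, 0.11 against 0.16 to 0.19 on the others. With marked background spots left out, the ratio of *ABCG40* there was 0.95, and the search was not repeated with those values.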

How the data were processed

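RNA of control (Cy3) and mVOC-exposed (Cy5) seedlings was measured on 4 Agilent 2-colour arrays. The authors deposited scanner output with median spot and background intensities on a linear scale, before normalization. The deposited files also hold the scanner software's log10 ratio. The deposited series table repeats that log10 ratio for replicates 2 to 4, while its column for replicate 1 holds the error of the ratio, and that 1 column was not used. The methods name background subtraction, lowess and limma.

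Computations used limma 3.58.1 under R 4.3.3. Intensities were corrected by normexp (offset 50) and normalized by loess, with control and outlier spots left out. For normalized intensities of single channels, the average brightness of spots was also put on a common scale across arrays (limma's Aquantile). Median intensities took the place of mean intensities, which are not used here. The 43603 probes were averaged to 29030 loci, each tested against 0 with limma and Benjamini-Hochberg adjustment, at a threshold of 0.05. Replicate numbers separate biological replicates, per the methods. The array pairs its samples: deviations from group means correlated across probes with r of 0.24 to 0.51 on the same array and of -0.35 to 0.11 otherwise. Steps were tested on simulated data with an even background and without a dye effect that changes with brightness. That test therefore does not cover those features of the arrays. The RefSeq gene table gave names for all 10 genes, and no coordinates are given because its build differs from that of the array design. No depth applies to arrays, and their number limits precision.

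The members and lists were chosen with earlier results of these data known. Named were the 10 genes, the other full-size genes, the lists of ABA transport and penetration resistance, of the half-size genes the 2 highest and 2 lowest among those called (3 in all), and the 5 loci nearest to *ABCG40*. Alternatives covered the background, normalization, source of the ratio, outlier and dim spots, variance, slide, pairing, call rule, probe unit and each replicate left out.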

Additional observations from a re-analysis of the deposited data

Results flagged for a closer look

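The log2 ratio of *ABCG34* in replicate 3, 0.052, lay far from those of the other replicates, which were between -0.029 and -0.025. It is the mean of 2 probes with opposite signs, at -0.29 and 0.40 on that array. By chance about 5% of groups of 4 values pass the limit used to single out such a value, and 10 genes were looked at.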

How the results depend on the processing

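The count of the 10 genes called, 1 higher and 3 lower, came to 2 higher (*ABCG32* and *ABCG40*) and 0 lower with median centring, under which *ABCG36* turned to 0.097 and 20.7% of all loci were called higher and 21.3% lower. It was 0 and 0 with normexp without offset, 0 and 0 with an ordinary test, and 0 and 0 with an unadjusted p below 0.05 and a fold of at least 2, where 0, 4 and 1 of all loci were called higher and 1, 13 and 9 lower. Within slide 2 alone it was 2 higher (*ABCG33* and *ABCG40*) and 2 lower, where 8.02% and 6.12% of all loci were called. With each probe tested, 2 genes had a probe called higher and 4 a probe called lower, *ABCG34* under both, where 9.62% and 8.58% of all probes were called. Without the array as a replicate block it was 1 higher and 2 lower, *ABCG35* being lost, with 1470 and 1192 of all loci called against 2709 and 2310. With each replicate left out in turn the counts were 1 and 3 throughout, while 1373 to 2139 of all loci were called higher and 1179 to 1737 lower. The log2 ratio of *ABCG40* was then 0.85 to 1.12. It was 1.36 with the scanner software's ratio and 1.23 with plain background subtraction. Over the 14 alternatives that recompute the log2 ratios, 126 of 140 values of single genes moved by less than 1 SD and 14 by more. Leaving 1 replicate out or taking 1 slide alone cannot move a mean of 4 arrays by 1 SD. Keeping outlier spots had little to change, since no member spot was flagged as one. Those settings therefore say little about stability. All 14 larger moves came with plain background subtraction, median centring, the scanner software's ratio or the series table. In 19 of the 140 values the sign turned, over 6 genes, of which only *ABCG36* was among the genes called. The shifts past 1 SD among these were *ABCG32* to 0.23, *ABCG34* to 0.16 and *ABCG36* with median centring, and *ABCG30* to 0.066 with plain subtraction. The number of arrays and the single probe of most genes limit these values.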
